A study of Rattus norvegicus with 38 samples.

Results

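The genes described here are 44 genes of the cell cycle and of DNA replication, chosen by name as a list. No rule on their values was used, but earlier results of these data were known when the list and its roles were chosen. They comprise cyclins and cyclin-dependent kinases (CDKs), CDK inhibitors, the replication clamp and helicase, enzymes of deoxynucleotide supply, mitotic kinases, regulators of the spindle checkpoint and anaphase, spindle motors and proteins of cytokinesis and chromosome structure, and a microtubule and a lamina protein. Of the 44 genes, 37 could be measured on the heart arrays and 43 on the arrays of peripheral blood mononuclear cells (PBMC), out of 10411 and 14217 genes with a single symbol. Cdk2, Ccna2, Kif11, Kif23, Nusap1 and Prc1 had no probeset in heart, and Rrm2 had none of its own in either tissue because its probesets carry several symbols.

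Heart expression was measured on 18 Affymetrix RAE230A arrays and PBMC expression on 20 RAE230 2.0 arrays, with 1 rat or heart per array. Donor hearts of strain Dark Agouti (DA) were placed in the abdomen of rats of strain DA (isografts, n = 4) or Brown Norway (BN; allografts, n = 5), and the recipients' own native hearts were taken as well (native DA, n = 4; native BN, n = 5). Both grafts are therefore DA hearts, and the strains differ in major histocompatibility antigens, so that a DA graft is rejected by BN and accepted by DA recipients. PBMC, which a density gradient separates from blood, came from BN allograft recipients (n = 5), DA isograft recipients (n = 9) and untransplanted BN (n = 3) and DA rats (n = 3). Grafts, native hearts and recipient PBMC were taken on post-transplant day 6, and neither age nor sex of the rats is given in the labels. Graft tissue holds donor heart cells and the recipient cells that have entered it, and each array gives the average over all of them. A graft and a native heart with the same number came from the same recipient.

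A dividing cell passes from G1 into S phase when D-type and E-type cyclins activate CDKs, copies its DNA with the minichromosome maintenance (MCM) helicase and the PCNA clamp, and enters mitosis when B-type cyclins activate Cdk1. Many genes of DNA replication are transcribed ahead of S phase under E2F factors, and many genes of mitosis later under complexes of MuvB. Lymphocytes divide when an antigen activates them, whereas adult heart muscle cells rarely do. Transcripts such as Mki67, Top2a and Ccnb2 are scarce in resting cells and are used as markers of proliferation.

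Many promoters of cell cycle genes hold elements on which that timing is known to depend, and these were searched for here. The windows shown run from 250 bases before to 50 bases after the start in RefSeq, build GRCr8, and belong to genes whose signals in allografts are described next, 4 mitotic genes and 2 helicase subunits that were higher and the D-type cyclin Ccnd3 that was lower. Capitals mark, on either strand, the cell cycle gene homology region (CHR; TTTGAA or TTCGAA), the CCAAT box (CCAAT, bound by NF-Y) and E2F elements (TTTGGCGC, TTTGCCGC, TTTCGCGC or TTTCCCGC). Matches overlap one another in Mki67, Mcm6 and Mcm5.
Mki67, chr1:199952544-199952843, minus strand: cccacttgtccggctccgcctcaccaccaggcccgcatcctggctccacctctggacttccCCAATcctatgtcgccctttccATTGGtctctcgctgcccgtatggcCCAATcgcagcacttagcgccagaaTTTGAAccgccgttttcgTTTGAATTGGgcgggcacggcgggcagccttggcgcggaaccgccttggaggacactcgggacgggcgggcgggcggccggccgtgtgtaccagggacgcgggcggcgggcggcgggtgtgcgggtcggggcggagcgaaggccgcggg
Ccnb2, chr8:79981609-79981908, minus strand: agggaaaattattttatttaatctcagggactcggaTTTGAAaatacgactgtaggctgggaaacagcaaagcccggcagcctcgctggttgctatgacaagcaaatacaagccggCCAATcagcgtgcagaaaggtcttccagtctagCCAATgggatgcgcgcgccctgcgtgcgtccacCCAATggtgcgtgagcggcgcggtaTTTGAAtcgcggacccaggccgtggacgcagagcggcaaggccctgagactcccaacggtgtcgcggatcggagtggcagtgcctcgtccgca
Cdk1, chr20:19265043-19265342, plus strand: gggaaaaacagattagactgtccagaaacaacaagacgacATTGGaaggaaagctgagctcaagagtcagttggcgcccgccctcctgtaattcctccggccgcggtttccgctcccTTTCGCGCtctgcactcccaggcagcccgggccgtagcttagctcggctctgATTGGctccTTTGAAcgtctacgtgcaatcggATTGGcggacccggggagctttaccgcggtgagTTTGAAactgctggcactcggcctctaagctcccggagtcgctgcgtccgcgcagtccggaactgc
Cdc20, chr5:137255750-137256049, minus strand: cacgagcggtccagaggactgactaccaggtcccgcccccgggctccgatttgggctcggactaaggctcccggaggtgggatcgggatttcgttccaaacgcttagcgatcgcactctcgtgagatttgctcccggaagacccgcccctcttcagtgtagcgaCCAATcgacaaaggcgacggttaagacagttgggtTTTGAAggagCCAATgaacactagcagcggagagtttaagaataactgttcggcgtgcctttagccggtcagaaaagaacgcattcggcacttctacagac
Mcm6, chr13:42404303-42404602, minus strand: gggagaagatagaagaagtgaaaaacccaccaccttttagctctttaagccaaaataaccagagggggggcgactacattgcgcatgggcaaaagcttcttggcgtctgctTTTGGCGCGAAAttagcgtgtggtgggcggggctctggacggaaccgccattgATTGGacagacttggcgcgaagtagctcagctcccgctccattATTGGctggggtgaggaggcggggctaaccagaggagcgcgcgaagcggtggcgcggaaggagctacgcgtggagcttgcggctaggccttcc
Mcm5, chr19:13488563-13488862, plus strand: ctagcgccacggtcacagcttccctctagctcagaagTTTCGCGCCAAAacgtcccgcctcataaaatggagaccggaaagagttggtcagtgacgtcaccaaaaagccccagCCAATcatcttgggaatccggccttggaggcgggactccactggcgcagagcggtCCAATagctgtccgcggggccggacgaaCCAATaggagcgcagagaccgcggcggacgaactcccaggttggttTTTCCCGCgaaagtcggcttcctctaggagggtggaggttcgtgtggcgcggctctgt
Ccnd3, chr9:20897826-20898125, minus strand: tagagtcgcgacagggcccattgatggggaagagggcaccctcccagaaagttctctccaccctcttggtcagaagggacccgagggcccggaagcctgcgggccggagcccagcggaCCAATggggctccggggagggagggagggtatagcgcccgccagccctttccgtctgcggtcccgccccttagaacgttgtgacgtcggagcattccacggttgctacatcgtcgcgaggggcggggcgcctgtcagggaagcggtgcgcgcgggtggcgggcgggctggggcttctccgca

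Of the 44 genes, 37 matched a window by symbol, 36 of them a single window. A CHR stood in 18 of the 36 windows, a CCAAT box in 26 and an E2F element in 8, compared with 19.7%, 37.5% and 2.14% of all 33469 windows of this length. None of them was found in the windows of Aurka, Ccne1, Cdk4, Cdkn1a, Cdkn2c and Tk1. The CHR was found in 5 of 7 windows of mitotic kinases, cyclins and their activators, in 4 of 4 of checkpoint and anaphase genes and in 5 of 7 of spindle motor, cytokinesis and chromosome genes, but in 0 of 4 of G1 cyclins and kinases and 0 of 3 of CDK inhibitors. The E2F element was found in 5 of 6 windows of the clamp and helicase. These are matches of letters and no test of binding, and genes with a shared role are not independent of each other.

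Most of the measured cell cycle genes were higher in allografts than in isografts, a contrast called the rejection effect here. Allograft recipients were BN and isograft recipients DA rats. Rejection and the strain of recipient cells in the graft therefore cannot be told apart. A gene passed the test where its limma p, adjusted over all 15866 probesets (Benjamini-Hochberg), did not exceed 0.10. By that threshold 31 of 37 genes were higher in allografts, 3 were lower and 3 did not pass, beside 20.3% of all probesets that were higher and 21.2% that were lower. Signals are given in multiples of the median signal of the same array. The median change of the 37 genes was 1.32 on the log2 scale (2.49-fold), beside 0.02 for all probesets. The groups did not overlap for 28 genes that were higher in every allograft than in any isograft (15.4% of all probesets) and for 2 that were lower (15.9%). A signal criterion asked that 50% or more of the samples in 1 of both groups reach the array median, and 32 of the 37 genes met it. With this criterion and a minimum of 3-fold added to the test (all 3 criteria), 13 genes were called higher and 0 lower, beside 3.81% and 5.05% of all probesets. The heat map of the heart samples shows this difference across the roles.

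**Figure D1:**
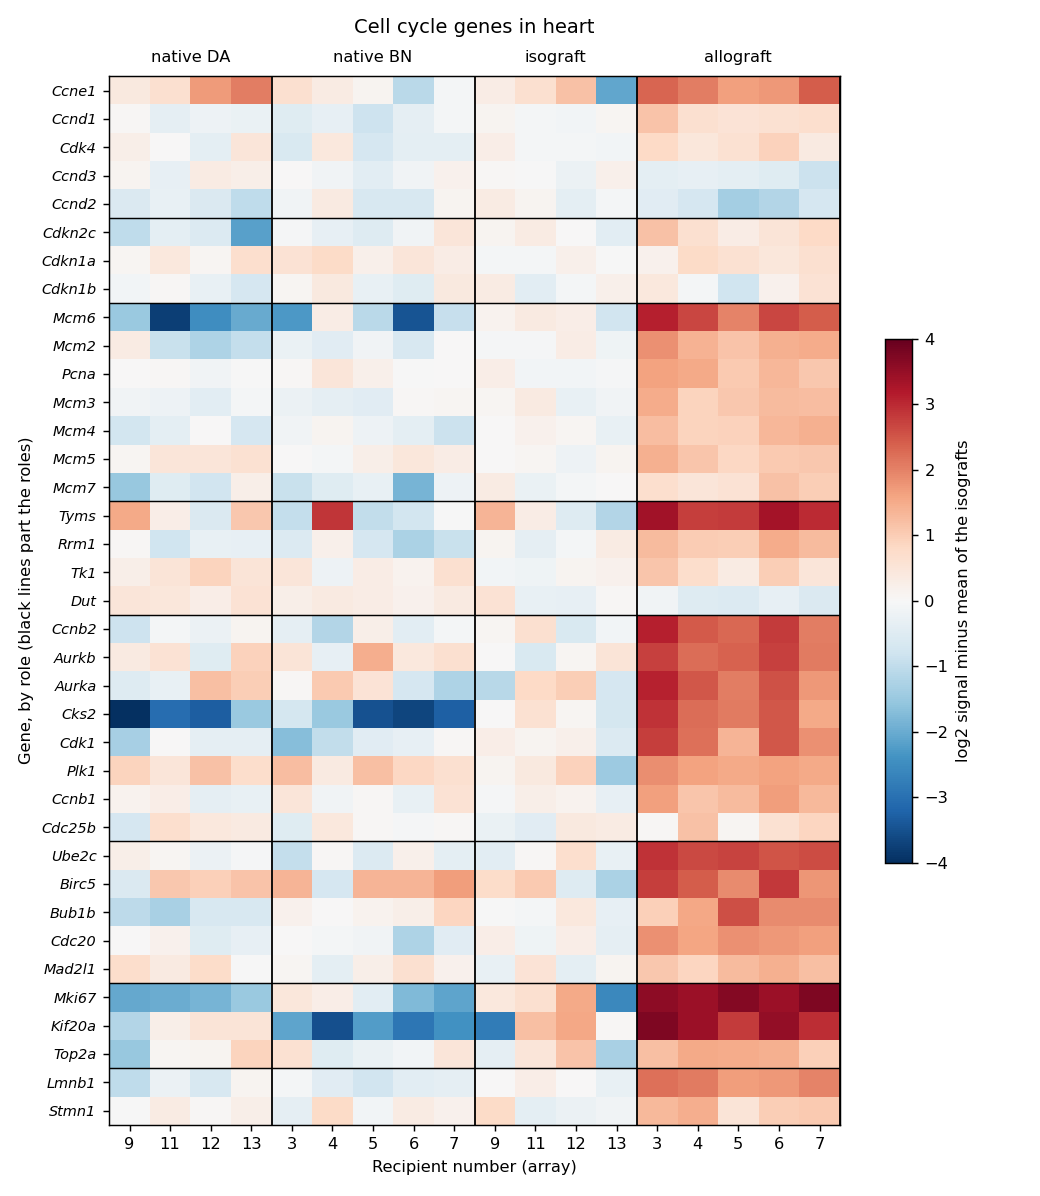
Each cell is the log2 signal of a gene (rows, ordered by role and then by the rejection effect) in 1 heart (columns, numbered by recipient) minus the gene's mean over the 4 isografts, with differences beyond 4 drawn at the end of the colour scale. The 5 allografts are red for most replication and mitosis genes, while Ccnd2 and Ccnd3 are blue, and native hearts are mostly near the isografts apart from genes such as Cks2, Mcm6 and Kif20a.

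Among the 37 genes, the largest increases were those of the mitotic genes Mki67 and Kif20a, followed by Tyms of deoxynucleotide supply. The signal of the proliferation marker Mki67 was 3.09, 2.80, 3.34, 2.81 and 3.49 array medians in allografts 3 to 7. It was 0.347, 0.411, 0.748 and 0.0438 in isografts 9, 11, 12 and 13. All allografts lay within a narrow range far above every isograft, and isograft 13 was much lower than the other isografts. Mki67 was 11.8-fold higher in allografts (3.56 on the log2 scale with an SE of 0.65, limma adjusted p = 0.000353), and 6.52-fold higher without isograft 13. The kinesin Kif20a, which acts in cytokinesis, was at 2.87, 2.29, 1.50, 2.44 and 1.66 in allografts and at 0.0311, 0.494, 0.627 and 0.221 in isografts. Again no isograft reached an allograft, and here isograft 9 was the lowest. Kif20a was 9.73-fold higher (SEs beside fold changes refer to log2 values; SE 0.66), and 5.11-fold higher without isograft 9. Top2a, the topoisomerase that untangles sister chromosomes, was higher by a smaller factor (2.49-fold, SE 0.46, adjusted p = 0.0356), with all its signals under 1 array median, a range of 0.672 to 0.980 in allografts and of 0.142 to 0.768 in isografts. The groups overlapped, and Top2a did not pass without isograft 13 (1.85-fold, adjusted p = 0.151).

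Among the mitotic kinases, cyclins and their activators, 7 of 8 genes were higher and 6 met all 3 criteria. Ccnb2, a B-type cyclin, was at 4.56, 2.94, 2.60, 3.69 and 2.20 in allografts and at 0.567, 0.826, 0.348 and 0.496 in isografts. Every allograft was above the array median and every isograft below it, with a 5.81-fold difference (2.54 on the log2 scale, SE 0.31, limma adjusted p = 5.28e-06). Aurkb, the kinase of the chromosomal passenger complex, was 5.40-fold higher (SE 0.33), with 1.22 to 1.92 in allografts and 0.190 to 0.414 in isografts. Aurka, a kinase of the spindle poles, was 5.22-fold higher (SE 0.53), with 0.691 to 1.76 against 0.0961 to 0.406. Cdk1, the partner of the B-type cyclins, was 4.36-fold higher (SE 0.36), its small binding partner Cks2 4.72-fold (SE 0.63), the kinase Plk1 3.08-fold (SE 0.35) and Ccnb1 2.63-fold (SE 0.21). The phosphatase Cdc25b, which activates CDKs, did not pass (log2 fold change 0.55, SE 0.30, adjusted p = 0.171).

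All 5 genes of the spindle checkpoint and anaphase were higher. Ube2c, the ubiquitin-conjugating enzyme of the anaphase-promoting complex, was at 6.71, 5.58, 5.78, 5.10 and 5.51 in allografts and at 0.664, 0.926, 1.44 and 0.727 in isografts. The allografts varied little among themselves, and the 6.37-fold difference had the smallest adjusted p of the 37 genes (log2 fold change 2.67, SE 0.24, limma adjusted p = 2.46e-07). Birc5, which guides the chromosomal passenger complex, was 5.04-fold higher (SE 0.54), and Cdc20, an activator of the anaphase-promoting complex, 3.30-fold (SE 0.23). Of the 4 other Cdc20 probesets, all dimmer, 2 had changes of -0.25 and -0.07 on the log2 scale that did not pass, and the mean over all 5 was 0.67. The checkpoint genes Bub1b (3.43-fold, SE 0.28) and Mad2l1 (2.26-fold, SE 0.23) were below the signal criterion. Lamin B1 (Lmnb1), of the nuclear lamina, was 3.81-fold higher (SE 0.21), with 4.18 to 6.00 in allografts and 1.08 to 1.59 in isografts. Stathmin (Stmn1), which destabilizes microtubules, was 2.09-fold higher (SE 0.26), with 1 isograft (6.21) above the lowest allograft (5.22).

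The replication clamp and all 6 measured helicase subunits were higher as well, each without overlap between the groups. Mcm6 was at 4.06, 2.99, 1.85, 3.02 and 2.52 in allografts and at 0.516, 0.596, 0.570 and 0.276 in isografts. It stood apart from the other subunits with a 5.96-fold difference (log2 fold change 2.58, SE 0.59, limma adjusted p = 0.00248), while Mcm2, Mcm3, Mcm4, Mcm5 and Mcm7 were between 1.71-fold and 2.74-fold higher. The clamp Pcna was at 19.0, 18.1, 12.9, 15.8 and 13.1 in allografts and at 7.49, 5.80, 5.88 and 6.10 in isografts. Pcna thus had a clear signal in every heart, and its 2.48-fold difference was measured with a small error (log2 fold change 1.31, SE 0.15, adjusted p = 4.11e-06). Mcm7 was closest to the threshold (adjusted p = 0.0903) and did not pass when 1 of 6 of the 9 arrays was left out.

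In deoxynucleotide supply, 3 of 4 genes were higher and Dut was lower. The ribonucleotide reductase subunit Rrm1 was 2.30-fold higher (SE 0.25), with 2.65 to 3.72 in allografts and 1.05 to 1.69 in isografts. Thymidine kinase (Tk1) was 1.65-fold higher (SE 0.20), with 1.61 to 2.77 against 1.12 to 1.43. Thymidylate synthase (Tyms) was 8.27-fold higher (SE 0.69), but its signals of 0.423 to 0.642 in allografts and 0.0278 to 0.160 in isografts were all below the array median. Dut, which removes dUTP, was at 5.85, 4.46, 4.44, 5.18 and 4.33 in allografts and at 9.54, 5.21, 5.18 and 6.72 in isografts. The groups overlapped, isograft 9 was the highest, and the difference (log2 fold change -0.42, SE 0.17, limma adjusted p = 0.0647) did not pass when 1 of 5 of the 9 arrays was left out, isograft 9 among them.

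The G1 cyclins moved in opposite directions. Ccnd1 was at 9.43, 6.75, 6.34, 6.52 and 6.92 in allografts and at 4.66, 4.06, 4.01 and 4.55 in isografts. It was higher in every allograft, by 1.65-fold (0.72 on the log2 scale with an SE of 0.16, limma adjusted p = 0.00174), and both of its other probesets were higher too. Ccnd2 was at 8.52, 7.34, 4.54, 5.18 and 7.31 in allografts and at 14.7, 12.5, 8.92 and 10.99 in isografts. Every allograft was lower, and the mean was 1.81-fold lower (-0.85, SE 0.25, adjusted p = 0.0124). Ccnd3 was at 4.99, 5.24, 4.94, 4.67 and 3.56 against 6.71, 6.47, 5.54 and 7.50, and was 1.40-fold lower (-0.49, SE 0.17, adjusted p = 0.0309), also without overlap. These 3 D-type cyclins share a role as activators of Cdk4, which was itself 1.54-fold higher (SE 0.22). Cyclin E (Ccne1), the partner of Cdk2 at the entry into S phase, was 4.11-fold higher (SE 0.54), with no signal above 1.00 array medians, and 2.53-fold higher without isograft 13.

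The CDK inhibitors had small changes. The p53 target Cdkn1a was 1.44-fold higher (log2 fold change 0.53, SE 0.17, limma adjusted p = 0.0201), although its second probeset, a dim one, did not pass (1.40, SE 0.64, adjusted p = 0.107). Cdkn2c was 1.61-fold higher without passing (adjusted p = 0.103), and Cdkn1b had a log2 fold change of 0.06 (SE 0.27, adjusted p = 0.899). The size of several large fold changes rested on weak isograft signals. With 0.25 array medians added before log2, Mki67 was 5.73-fold higher, Kif20a 4.33-fold, Tyms 2.37-fold, Aurka 2.79-fold, Aurkb 3.33-fold, Birc5 3.29-fold, Ccne1 2.16-fold and Bub1b 1.67-fold, and each still passed the test.

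**Figure D2:**
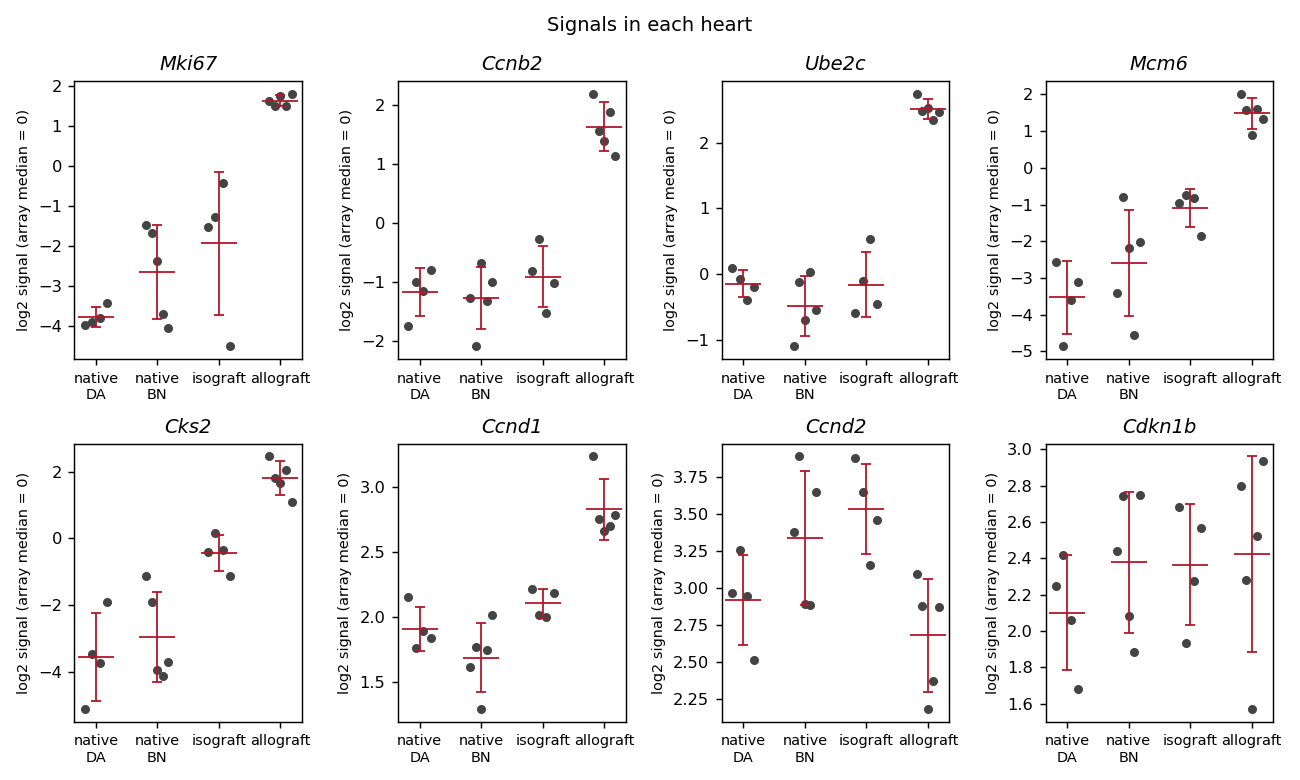
Each point is the log2 signal of 1 heart, where 0 is the median of its array, and the red bars give the mean and SD of the native DA (n = 4), native BN (n = 5), isograft (n = 4) and allograft (n = 5) hearts. Allografts are highest for Mki67, Ccnb2, Ube2c, Mcm6, Cks2 and Ccnd1, isografts are above native DA hearts for Mcm6 and Cks2, Ccnd2 is lower in allografts than in isografts, and Cdkn1b overlaps in all groups.

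Markers of leukocytes and of heart muscle moved with these genes, and their part in the result was not tested. All 9 measured T cell markers were higher in allografts, where their summed signal was 19.8 to 43.4 array medians against 5.04 to 6.02 in isografts. All 8 monocyte and macrophage markers were higher (237 to 391 against 49.6 to 81.0), as were 4 of 5 natural killer cell markers. Of 8 heart muscle markers, 7 were lower (131 to 320 against 522 to 880), and 5 of 7 fibroblast markers were lower. In such bulk samples, fewer or more cells of a type and less or more RNA per cell cannot be told apart.

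Other genes of the same pathways, which are not among the 44, were read from 3 further lists. Of 24 measured genes of mitosis, 20 were higher in allografts and 0 were lower, with a median log2 fold change of 1.84. The largest of them were Tacc3, a spindle protein (9.91-fold, SE 0.71), the kinesin Kif15 (7.52-fold, SE 0.55, below the signal criterion), the phosphatase Cdkn3 (6.93-fold, SE 0.60) and Cdca8 of the chromosomal passenger complex (6.52-fold, SE 0.41). Of 28 genes of origin licensing and replication, 16 were higher and 3 were lower (median 0.80). Gins1, a part of the replicative helicase complex, was 5.99-fold higher (SE 0.63) below the signal criterion, while Pola2, a subunit of DNA polymerase alpha, was 4.28-fold lower (SE 0.40). Of 23 genes that control the cycle, 9 were higher and 4 were lower (median 0.36), beside 20.3% and 21.2% of all probesets. The 4 lower genes were the CDK inhibitor Cdkn1c (3.21-fold lower, SE 0.23), Ccng1 (3.14-fold, SE 0.19), the repressor E2f6 (2.37-fold, SE 0.20) and Ccnh.

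**Figure D3:**
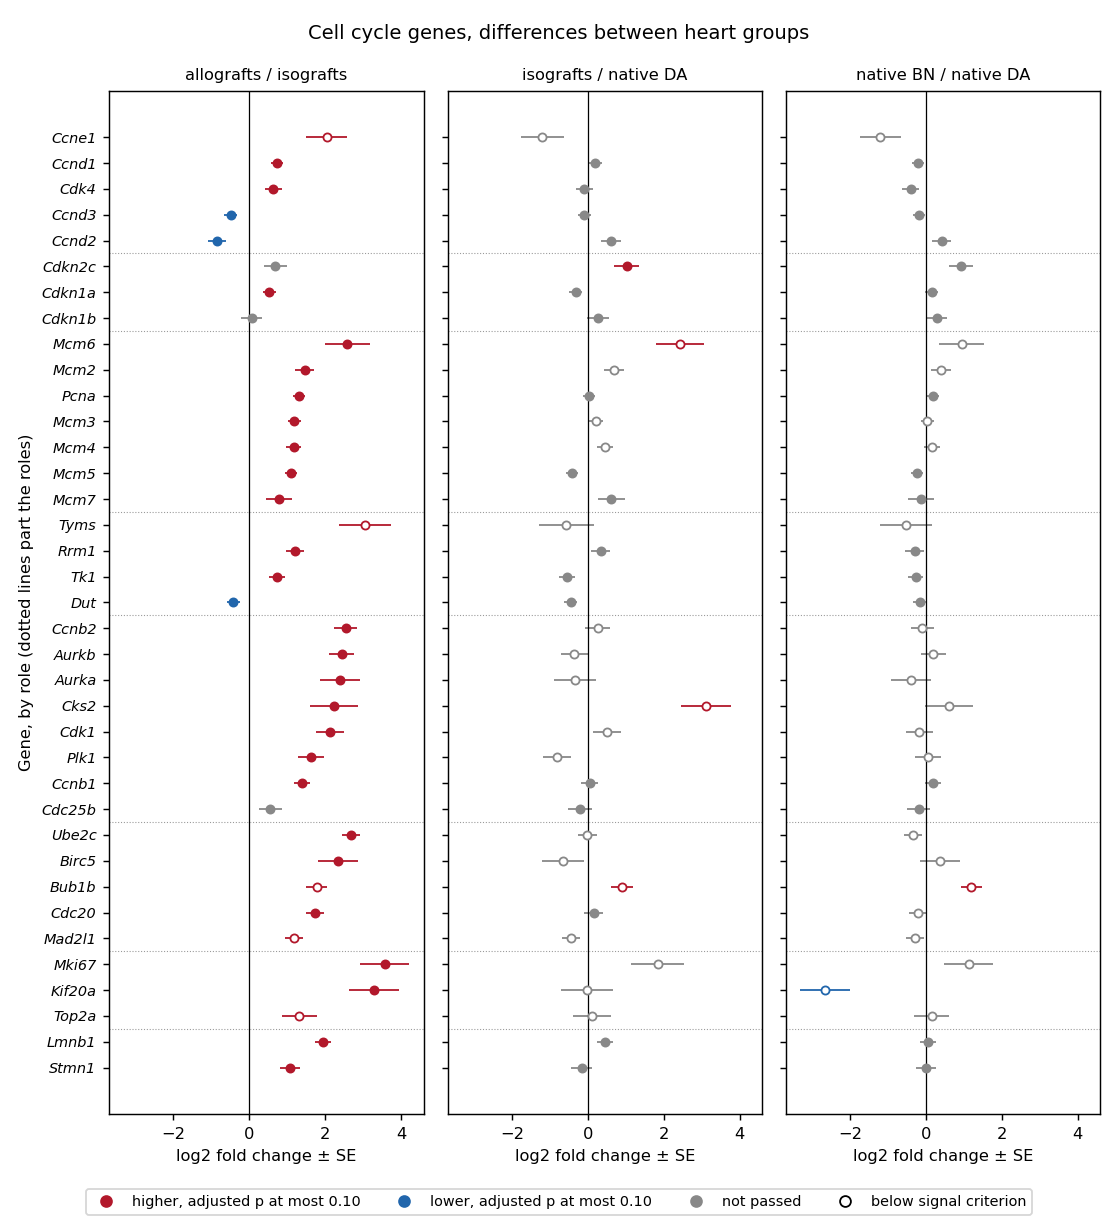
Points are log2 fold changes of the 37 genes with their SE in limma for allografts over isografts, isografts over native DA hearts and native BN over native DA hearts on a common axis, with open points for genes below the signal criterion. Of the 37 genes, 31 lie on the right and pass the test in the first panel, while 4 pass in the second and 2 in the third.

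Isografts and native DA hearts of the same recipients, compared for surgery and engraftment without rejection, differed at few cell cycle genes. The share of these genes was close to that of all probesets. Of 37 genes, 4 passed as higher and 0 as lower, beside 7.15% and 6.59% of all probesets. An unadjusted p under 0.05 in limma was found for 11 of the 37 genes, beside 3859 of all 15866 probesets. No gene met all 3 criteria, beside 0.826% of all probesets that did so as higher and 0.0819% as lower. For 3 genes every isograft was above every native DA heart (8.68% of all probesets), and for Tk1 every isograft was below (8.06%). The isografts are the same arrays as in the rejection effect, so that both comparisons share them. The test did not pair grafts with native hearts of the same rat. Cks2 was at 0.751, 1.12, 0.788 and 0.455 in isografts 9, 11, 12 and 13 and at 0.0290, 0.0902, 0.0760 and 0.267 in the native hearts of the same rats. Every isograft was above every native DA heart (8.68-fold, log2 fold change 3.12, SE 0.67, limma adjusted p = 0.0114), but native signals were far below the array median, and the difference was 2.81-fold with 0.25 array medians added. Mcm6 was at 0.516, 0.596, 0.570 and 0.276 in isografts and at 0.169, 0.0344, 0.0831 and 0.116 in native DA hearts. It followed the same order, allografts above isografts above native DA hearts, with 5.42-fold from native to isograft hearts (SE 0.63, adjusted p = 0.0286; 2.09-fold with 0.25 added).

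The CDK inhibitor Cdkn2c, which blocks Cdk4 and Cdk6, was the only gene of the 4 above the signal criterion in this comparison. Its signal was 1.66, 1.95, 1.56 and 1.15 in isografts and 0.768, 1.19, 1.06 and 0.346 in native DA hearts. The groups met at isograft 13, and the 2.04-fold difference (SE 0.33, limma adjusted p = 0.0654) did not pass when 1 of 5 of the 8 arrays was left out. Bub1b was 1.88-fold higher (SE 0.29, adjusted p = 0.0656), with no signal above 0.124 array medians. This call was lost when 1 of 4 arrays was left out or 0.25 array medians were added (1.14-fold, adjusted p = 0.446). Mki67 was 3.58-fold higher without passing (log2 fold change 1.84, SE 0.69, adjusted p = 0.110), with 1 isograft below all native DA hearts. Ube2c had a log2 fold change of -0.01 (SE 0.25), Cdc20 of 0.16 (SE 0.25) and Pcna of 0.03 (SE 0.16). Of 8 monocyte and macrophage markers, 7 were higher in isografts (49.6 to 81.0 array medians against 21.8 to 30.5), as were 4 of 7 fibroblast markers (209 to 268 against 63.5 to 79.1), and their part was not tested. Of 24 other mitosis genes 2 were higher, of 28 replication genes 1 was higher and 3 were lower, and of 23 control genes 0 passed. These counts stand beside 7.15% of all probesets that were higher and 6.59% that were lower.

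Native BN and native DA hearts differed at 2 of the 37 genes, both with weak signals. This comparison addresses the strain effect, but every native BN heart came from an allograft recipient and every native DA heart from an isograft recipient, so that strain and graft type cannot be told apart. Bub1b was higher in BN (0.103, 0.0921, 0.101, 0.108 and 0.167 in rats 3 to 7 against 0.0443, 0.0375, 0.0584 and 0.0595 in rats 9, 11, 12 and 13), and Kif20a was lower (0.0495, 0.0187, 0.0458, 0.0287 and 0.0403 against 0.0946, 0.251, 0.306 and 0.308). The strains did not overlap for either gene, with a 2.28-fold (SE 0.28, limma adjusted p = 0.0395) and a 6.30-fold difference (SE 0.66, adjusted p = 0.0553), and no signal exceeded 0.308 array medians. Neither call held when 0.25 array medians were added (adjusted p = 0.370 and 0.144), and both were lost without native DA heart 11. In all, 1 gene was higher and 1 lower, beside 1.48% and 1.46% of all probesets. An unadjusted p under 0.05 in limma was found for 4 of 37 genes, beside 2193 of all 15866 probesets. By all 3 criteria 0 genes were called (0.158% of all probesets as higher and 0.202% as lower). The median change was 0.00 on the log2 scale, against -0.02 for all probesets. None of the measured genes of the 3 further lists passed the test.

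In PBMC, the BN allograft recipients differed from the DA isograft recipients at 14 of 43 cell cycle genes. The 9 higher genes have roles in mitosis, and the 5 lower genes were 3 of the G1 group, 1 of 7 of the clamp and helicase and 1 mitotic activator. This comparison holds the strain effect and the rejection effect together. With p adjusted over 31042 probesets, 9 genes were higher and 5 were lower, beside 6.66% and 12% of all probesets, and 39 of the 43 met the signal criterion. The count of lower genes was thus close to the share of all probesets that were lower. No gene met all 3 criteria, since all fold changes were below 3, while 0.403% of all probesets were called higher and 0.638% lower by them. For 5 genes every allograft recipient was above every isograft recipient (2.39% of all probesets), and for 2 every allograft recipient was below (3.19%).

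Of the mitotic kinases, cyclins and their activators, 4 of 9 genes were higher. Ccna2, the cyclin of S phase and early mitosis, was at 1.44, 1.36, 0.852, 1.67 and 1.36 array medians in allograft recipients 3 to 7, and its lowest, median and highest signals in the 9 isograft recipients were 0.554, 0.680 and 0.851. The groups did not overlap, although allograft recipient 5 lay just above the highest isograft recipient, and the mean was 1.85-fold higher (log2 fold change 0.89, SE 0.18, limma adjusted p = 0.00249). Ccnb2 was at 4.28, 3.11, 3.46, 3.26 and 2.76 against a lowest, median and highest of 1.58, 2.01 and 2.53. It was 1.64-fold higher without overlap (SE 0.15). Aurkb was at 3.67, 3.48, 2.89, 3.25 and 3.90, with 1.52, 1.88 and 2.89 as the lowest, median and highest isograft recipients (1.77-fold, SE 0.16). The lowest allograft recipient and the highest isograft recipient had nearly equal Aurkb signals. Aurka was 1.57-fold higher (SE 0.14), also without overlap. Cdk1 and Ccnb1, which form a complex in mitosis, had changes of 0.27 (SE 0.16) and -0.14 (SE 0.11) on the log2 scale that did not pass.

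Of the spindle motor, cytokinesis and chromosome genes, 4 of 7 were higher. Prc1, which bundles the microtubules of the central spindle, was at 4.16, 4.12, 4.28, 2.93 and 2.42 in allograft recipients and at a lowest, median and highest of 0.853, 1.53 and 2.50 in isograft recipients. Only isograft recipient 20 exceeded an allograft recipient, and the mean was 2.29-fold higher (1.20 on the log2 scale with an SE of 0.21, limma adjusted p = 0.000837). The kinesin Kif23 was at 2.21, 1.85, 1.96, 1.67 and 1.40 against 0.812, 1.26 and 1.35, without overlap (1.63-fold, SE 0.16). Its second probeset, a dim one, had a change of -0.57 (SE 0.49) that did not pass, and the mean over both was 0.07 (adjusted p = 0.913). Top2a was 1.63-fold higher (SE 0.21) and the kinesin Kif11 1.30-fold (SE 0.12, adjusted p = 0.0486, not passed when 1 of 3 allograft recipients was left out). The mean over both Kif11 probesets was 2.63-fold higher (1.40 on the log2 scale, adjusted p = 0.00114), the dimmer of them having the larger change (2.41, SE 0.48). Mki67 was at 5.92, 4.59, 3.89, 4.37 and 3.17 against 2.63, 3.41 and 3.85, and just missed the threshold (1.32-fold, SE 0.15, adjusted p = 0.104). Bub1b was 2.37-fold higher (SE 0.45, adjusted p = 0.0811) below the signal criterion, and did not pass when 1 of 10 of the 14 arrays was left out. The other 4 checkpoint and anaphase genes did not pass, with changes of 0.11 to 0.28 on the log2 scale.

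**Figure D4:**
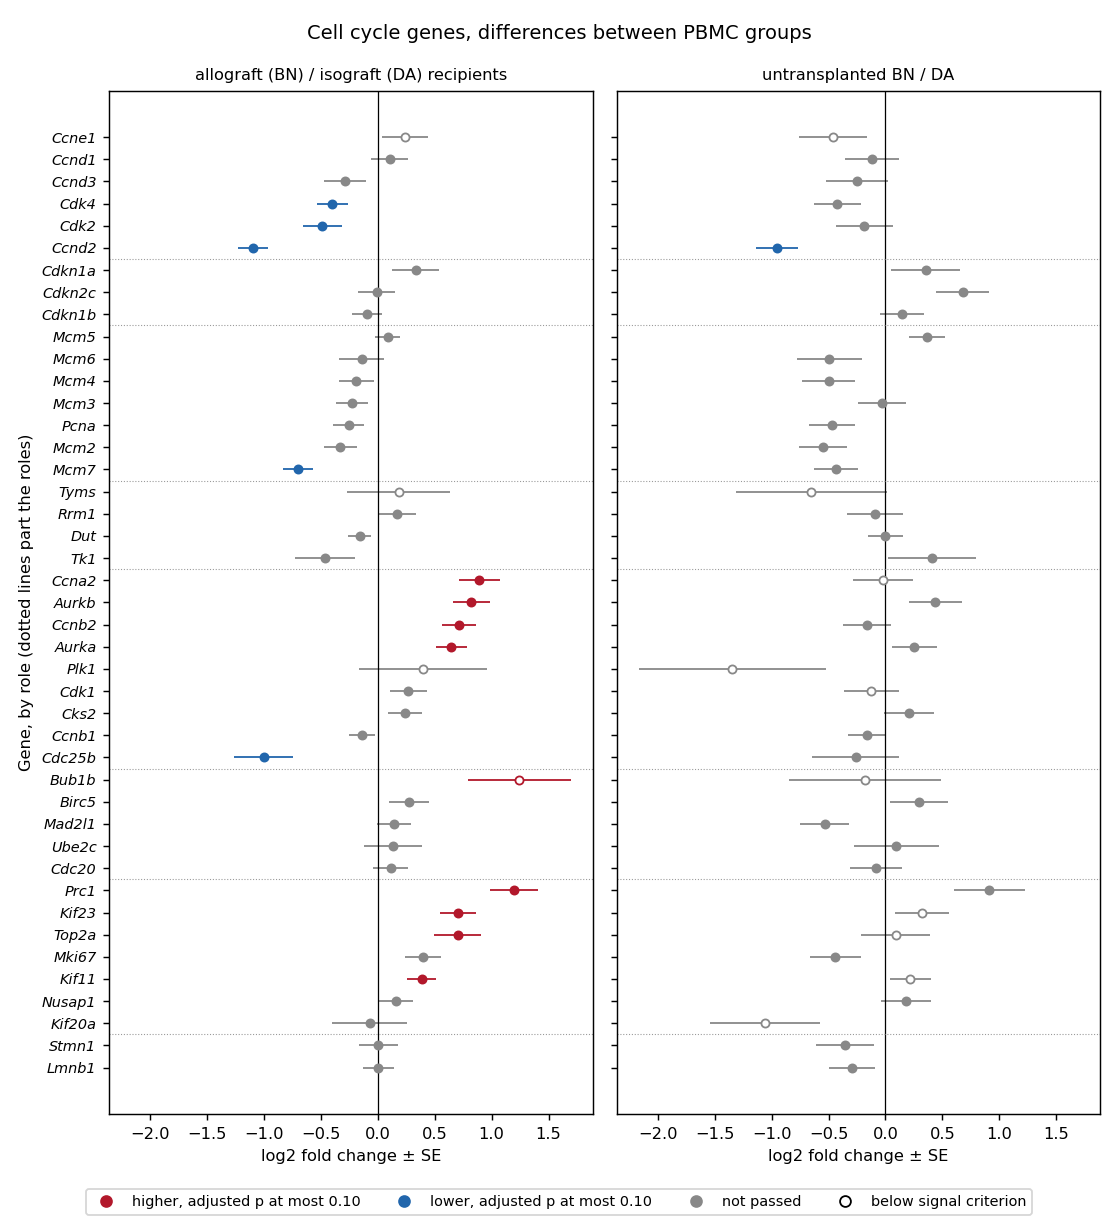
Points are log2 fold changes of the 43 genes with their SE in limma for BN allograft over DA isograft recipients and for untransplanted BN over DA rats, with open points for genes below the signal criterion. In the first panel 9 genes, from the mitotic roles, pass on the right and 5 on the left, and in the second panel only Ccnd2 passes.

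The 5 lower genes were Ccnd2, Cdk2 and Cdk4 of the G1 group, the helicase subunit Mcm7 and the phosphatase Cdc25b. Ccnd2 was at 8.42, 10.8, 10.5, 9.09 and 8.66 in allograft recipients, and its lowest, median and highest signals in isograft recipients were 15.4, 19.5 and 27.1. The groups lay far apart (2.14-fold lower, log2 fold change -1.10, SE 0.13, limma adjusted p = 1.12e-05). Ccnd2 was also the only cell cycle gene that passed between untransplanted rats, with 16.7, 20.2 and 14.8 in BN and 34.9, 31.8 and 32.7 in DA rats (1.94-fold lower, log2 fold change -0.95, SE 0.19, adjusted p = 0.00454). Both contrasts of BN with DA rats had the same direction, and their difference was -0.15 (SE 0.23). Mcm7 was at 9.22, 7.64, 6.42, 7.98 and 6.40 in allograft recipients and at a lowest, median and highest of 8.92, 12.9 and 14.8 in isograft recipients (1.63-fold lower, SE 0.13, adjusted p = 0.00113). Of the 7 clamp and helicase genes Mcm7 alone passed, and 6 of the 7 had negative changes. Cdk4 (1.32-fold lower, SE 0.14) and Cdk2 (1.40-fold lower, SE 0.17) each lost the call when 1 of 7 of the 14 arrays was left out.

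Cdc25b and 2 genes that did not differ between the recipient groups, Tk1 and Ube2c, varied among the isograft recipients along with red cell transcripts, a pattern noticed after the values were seen. Cdc25b was at 15.3, 16.2, 17.7, 14.3 and 11.3 in allograft recipients, and in isograft recipients at 19.2, 18.6, 19.3 and 19.0 in rats 9, 11, 14 and 16 and at 39.4, 34.3, 53.0, 44.9 and 42.6 in rats 12, 17, 18, 20 and 21. The summed signal of 6 red cell markers, hemoglobin beta among them, was 232, 279, 236 and 218 in the first 4 of these rats and 393, 347, 532, 411 and 434 in the other 5, compared with 147 to 232 in allograft recipients. The same 5 rats were thus the highest in both measures, although the order within each set differed, and the sets were drawn from these values. Ube2c was at 2.91, 3.20, 2.41 and 2.86 in rats 9, 11, 14 and 16 and at 7.06, 6.33, 6.01, 4.36 and 5.54 in the other 5, and Tk1 at 3.31, 3.89, 3.26 and 3.49 and at 9.42, 9.22, 8.39, 5.89 and 5.87. The split of Tk1 was seen with its brightest probeset, while the 2 other Tk1 probesets ran from 1.56 to 2.57 and from 0.518 to 1.06 in the 9 rats without it. In the dimmer of these, rats 12, 17, 18 and 21 (0.737, 0.578, 0.518 and 0.541) were below rats 9, 11, 14 and 16 (0.815, 1.03, 0.903 and 1.06). Rat 20 was at 0.971. Between allograft and isograft recipients Cdc25b was 2.01-fold lower (log2 fold change -1.01, SE 0.26, limma adjusted p = 0.0142), Ube2c had a change of 0.13 (SE 0.26) and Tk1 of -0.47 (SE 0.27). Of the 6 red cell markers 5 were lower in allograft recipients, and their part in the Cdc25b difference was not tested.

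**Figure D5:**
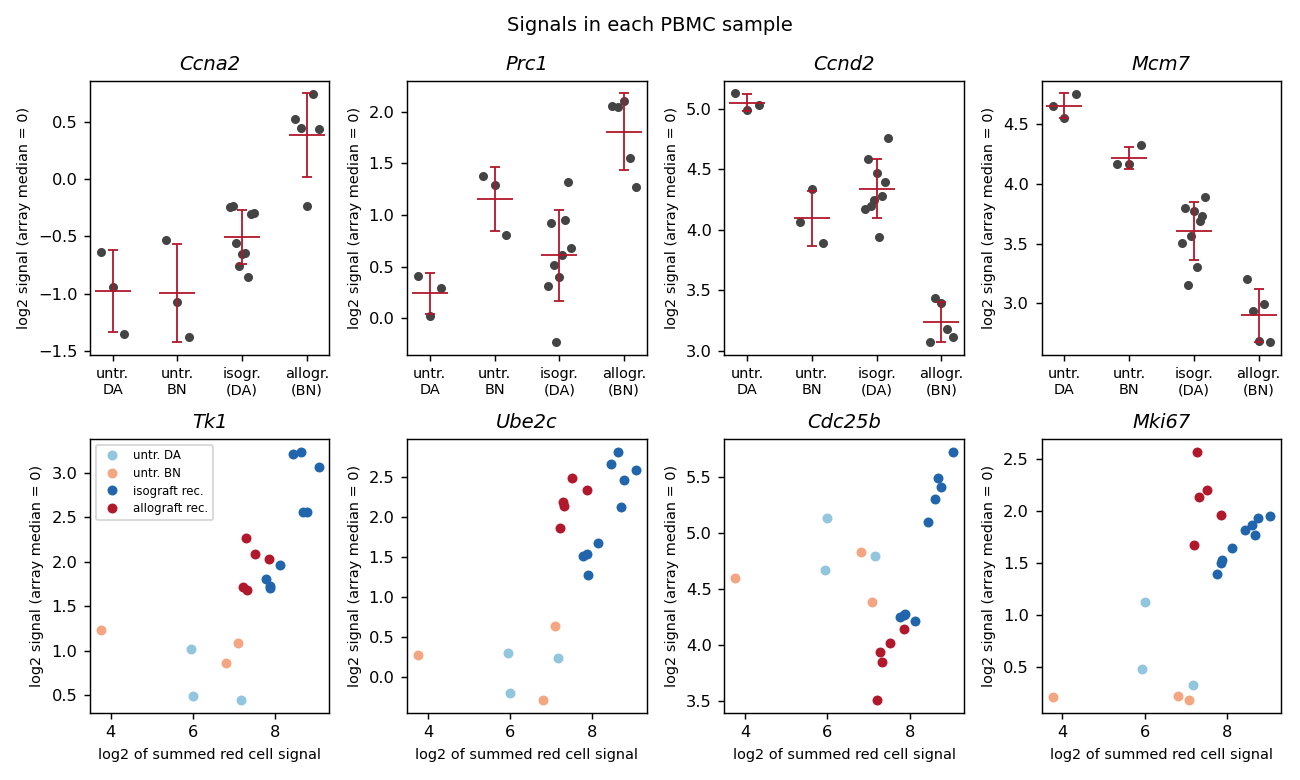
The upper panels give the log2 signal of each PBMC sample, where 0 is the median of its array, with the mean and SD of untransplanted DA (n = 3), untransplanted BN (n = 3), isograft recipient (n = 9) and allograft recipient (n = 5) rats. The lower panels set the log2 signal of Tk1, Ube2c, Cdc25b and Mki67 against the log2 of the summed signal of 6 red cell markers. Isograft recipients form 2 clouds for Ube2c, Cdc25b and the brightest probeset of Tk1.

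Between untransplanted BN and DA rats, which show the strain effect alone, only Ccnd2 passed the test. With 3 rats in each group, a gene that did not pass may still differ. Of 43 genes 0 passed as higher and 1 as lower, beside 3.58% and 4.86% of all probesets. In limma, 10 of the 43 genes (3 higher and 7 lower) had an unadjusted p under 0.05, beside 5691 of all 31042 probesets. By all 3 criteria 0 genes were called, beside 0.425% and 0.622% of all probesets. For 14 genes all 3 BN rats were below all 3 DA rats (19.1% of all probesets), among them Pcna, Mcm2, Mcm4, Mcm6 and Mcm7 of the clamp and helicase, and for 4 all BN rats were above (9.53%). Prc1 came close to the threshold (1.88-fold higher, SE 0.31, adjusted p = 0.104), with 2.59, 2.44 and 1.75 in BN and 1.33, 1.02 and 1.23 in DA rats. Mki67 had a change of -0.44 (SE 0.23, adjusted p = 0.319) and Ccna2 of -0.02 (SE 0.26).

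The difference between both PBMC contrasts, allograft over isograft recipients minus untransplanted BN over DA, asks what remains once the strain effect is subtracted. By this test 0 of 43 genes passed in limma, and 0 when the variance was not moderated, beside 0.213% of all probesets with a positive and 0.135% with a negative difference. By all 3 criteria the count was 0 as well (0.0709% and 0.0515% of all probesets). At an unadjusted p under 0.05 there were 5 genes, Ccnb2 (0.88, SE 0.26), Ccna2 (0.91, SE 0.32), Mki67 (0.84, SE 0.27), Mad2l1 (0.68, SE 0.26) and Cdkn2c (-0.69, SE 0.29), with adjusted p-values in limma of 0.268 to 0.519. Of all 31042 probesets, 2595 had an unadjusted p under 0.05 for this difference. Of the mitotic kinases, cyclins and their activators 8 of 9 differences were positive, with a median of 0.39 on the log2 scale. Of all 43 genes 29 differences were positive, with a median of 0.22, beside 0.02 for all probesets. None of these differences passed the test.

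Of the 9 genes that were higher in PBMC of allograft recipients, 5 were measured in heart (Ccnb2, Aurka, Aurkb, Bub1b and Top2a), and all 5 were higher in allografts, as were 31 of all 37 measured genes. Allografts and PBMC of allograft recipients came from the same rats, so the calls in both tissues are not independent of each other. Of the 5 lower genes, Ccnd2 was lower in allografts too, Cdk4 and Mcm7 were higher there, Cdc25b did not pass and Cdk2 was not measured. T cell markers were lower in BN PBMC, 8 of 9 in recipients (204 to 349 array medians against 327 to 557 in isograft recipients) and 6 of 9 in untransplanted rats (455 to 509 against 817 to 865). Of 10 monocyte and macrophage markers, 7 were higher and 1 lower in BN recipients and 6 higher in untransplanted BN rats. Their summed signals overlapped between the strains in both (222 to 332 against 188 to 290 in recipients, 258 to 314 against 231 to 347 in untransplanted rats), and the part of either list in the cell cycle genes was not tested.

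In the further lists, 9 of 41 mitosis genes were higher in allograft recipients and 1 was lower, among them Cenpa, the centromeric histone (3.63-fold, SE 0.62, below the signal criterion), and Kif15 (2.95-fold, SE 0.18). Kif15 was also 3.14-fold higher in untransplanted BN than in DA rats (SE 0.27). Of 38 replication genes 2 were higher and 7 were lower, Pole2, a subunit of DNA polymerase epsilon, by 1.71-fold (SE 0.15). Of 31 control genes 3 were higher and 4 were lower, with E2f2, an E2F activator, 4.59-fold lower (SE 0.20, limma adjusted p = 7.59e-07) after 2.31-fold lower in untransplanted BN rats (SE 0.29). In untransplanted rats the counts were 3 higher and 1 lower of 41 mitosis genes and 0 and 5 of 38 replication genes. Of 31 control genes 1 was higher and 2 were lower. Of all probesets, 3.58% were higher and 4.86% lower in untransplanted rats, and 6.66% and 12% in recipients. In the difference of both contrasts 0 genes of the 3 lists passed.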

How the data were processed

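Signal intensities of 38 samples were used as deposited. The authors derived 1 intensity per probeset with the MAS5 algorithm (version not given in the sources used here), and the deposited arrays have nearly equal trimmed means. RNA of PBMC and of hearts was labeled by different kits, and transplanted and untransplanted PBMC were processed in separate batches. Each array was divided by its median (38.3 to 50.8 in heart, 20.2 to 36.8 in PBMC) and transformed to log2. After removal of 57 control probesets per array type, each tissue was fitted with limma 3.58.1 in R 4.3.3 (lmFit and eBayes, a mean for each of 4 groups), after the authors' ANOVA and false discovery threshold. P-values were adjusted over all 15866 or 31042 probesets, rest on the spread between arrays within groups, and are limited in precision by the number of arrays. Grafts and native hearts of 1 recipient entered the main fit as separate arrays, without pairing. The signal criterion stands in for present calls, which were not used. Fits were checked on simulated data.

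Symbols came from the platform annotation, updated through the gene identifier to the RefSeq table of GRCr8, and 12748 of 12783 single-symbol heart probesets and 20758 of 20826 of PBMC matched it. A gene was read from its brightest probeset, and other probesets are given where they disagree in direction or call. All 44 genes were tested, values per sample are given for the genes with the largest changes of each role and those against their role, and up to 4 of the further pathway genes per comparison are named by size. The genes, roles and lists were chosen with earlier results of these data known. Hearts that share a number are from 1 recipient, although after removal of group means the correlation of such pairs was -0.045 to 0.118. Alternatives were quantile normalization, signals without division by the median, an added constant, other signal criteria and thresholds, the mean over probesets, other variance models, a replicate block and leaving out each array.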

Additional observations from a re-analysis of the deposited data

Results flagged for a closer look

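Within groups of 4 to 9 samples, 104 sets of signals of genes that passed a test were searched for a single sample far from the others by Dixon's criterion, and 3 were found, fewer than the 1 in 20 that chance gives. Ccnd1 was at 9.43 array medians in allograft 3, while the other 4 allografts lay between 6.34 and 6.92. Cdk4 was at 5.22 in isograft 9, while the other 3 isografts lay between 3.95 and 4.12. Bub1b was at 0.167 in native BN heart 7, while the other 4 lay between 0.0921 and 0.108. No cell cycle gene had PBMC effects of strain in recipients and untransplanted rats with a difference that passed the limma test.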

How the results depend on the processing

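Of 228 counts of cell cycle genes recomputed under other settings 204 stayed within 1.5 times their first value, as did 269 of 288 with 1 array left out, and no gene that passed a test changed direction. With 1 array left out, the rejection effect in hearts had 29 to 32 higher and 2 to 3 lower genes, untransplanted PBMC had 0 higher and 1 lower each time, and the difference of both PBMC contrasts had 0. The native strain effect fell to 0 lower genes at an adjusted p of at most 0.05, and to 0 higher and 0 lower with 0.25 array medians added or with the test run only on probesets above the signal criterion, while without that criterion 1 gene was lower by fold and test. It ranged from 0 to 2 higher and 0 to 1 lower with 1 array left out. For isografts over native DA hearts there were 2 higher genes at 0.05, 7 higher and 3 lower after quantile normalization, 1 higher and 3 lower above the signal criterion only, and 2 higher by fold and test without it. Lower genes in that comparison numbered 1 without division by the median, 1 with the mean over probesets, 2 with a variance trend and robust fit and 1 by plain ANOVA, and with 1 array left out 2 to 5 were higher and 0 to 1 lower. In untransplanted PBMC 2 genes were higher after quantile normalization, 3 without division by the median, 2 with the constant added, 2 above the signal criterion only, 2 with the mean over probesets, 2 with the variance trend and 1 by plain ANOVA. In recipient PBMC 3 genes were lower at 0.05, 3 without division by the median and 3 with only both groups in the fit, and with 1 array left out 7 to 11 were higher and 3 to 7 lower. The cause of these shifts was not tested. With a replicate block for hearts of the same recipient, 32 genes were higher and 3 lower in allografts, 5 higher and 0 lower in isografts against native hearts, and 1 higher and 1 lower between strains. Untransplanted rats share only a number, and with a replicate block on it 0 genes were lower (Ccnd2 adjusted p = 0.233 in limma). Probes with weak signals limit the precision of fold changes, as given beside the genes.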

Other observations

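Several cell cycle transcripts differed in level between transplanted and untransplanted PBMC of both strains. Mki67 was at 2.63 to 3.85 array medians in isograft recipients and 3.17 to 5.92 in allograft recipients, against 1.25 to 2.17 in untransplanted DA and 1.13 to 1.16 in untransplanted BN rats. Tk1 was at 3.26 to 9.42 and 3.22 to 4.82 in recipients, against 1.36 to 2.02 and 1.82 to 2.35, but this held for its brightest probeset only. A second Tk1 probeset overlapped in both strains (1.56 to 2.57 and 1.87 to 3.67 in recipients against 1.40 to 1.73 and 2.11 to 2.50). The other one overlapped in both strains as well (0.518 to 1.06 and 0.698 to 1.18 in recipients against 0.184 to 0.548 and 0.661 to 1.17). All 6 helicase subunits, Mcm2 to Mcm7, had the opposite order to Mki67, lower in recipients than in untransplanted rats of the same strain without overlap, as for Mcm7 with 8.92 to 14.8 and 6.40 to 9.22 in recipients against 23.5 to 27.1 in untransplanted DA and 17.95 to 20.1 in untransplanted BN rats. Transplantation and processing batch cannot be told apart in these values, and the share of all probesets with such orders was not counted. Arrays had medians of 26.6 to 34.4 in isograft and 27.4 to 36.8 in allograft recipients. Those of untransplanted DA rats were 20.2 to 21.2 and those of untransplanted BN rats 22.2 to 23.7. Division by the median thus raised untransplanted signals relative to those of recipients, and its part in these orders was not tested.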
